A study of Mus musculus with 2 samples.

Results

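GARP and TGF-β signalling was examined as a set of 10 genes of the 16098 genes in the count table, chosen by name: *Lrrc32*, *Tgfb1*, *Tgfbr1*, *Tgfbr2*, *Smad2*, *Smad3*, *Smad4*, *Smad7*, *Ski* and *Skil*. All 10 were present and none was removed by a filter. Their levels came from scRNA-seq of Treg cells, the suppressive CD4 T cells defined by the transcription factor Foxp3, which had been sorted as GFP+ cells from spleen and lymph node of male C57BL/6 mice at 7 months. The control library pooled 5 mice of genotype Foxp3DTR-GFP/y Cd4creERT2, in which Foxp3 is never blocked and is read by GFP. The rescued library pooled 4 mice of genotype Foxp3LSL/y Cd4creERT2, in which a stop cassette silences Foxp3 until Cre removes it. Both groups carried the R26Tom reporter and the Cd4-driven CreERT2, and both received 4-hydroxytamoxifen (4-OHT), which switches this recombinase on, on postnatal day 14. Each group was 1 library of pooled mice, so no difference had a replicate check, no test was run, and all intervals cover counting error only.

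TGF-β1 is secreted as a latent complex. GARP, the protein encoded by *Lrrc32*, holds that complex on the surface of activated Treg cells, and the integrin αvβ8 frees the cytokine from it. Free TGF-β binds the type II receptor (*Tgfbr2*), which phosphorylates the type I receptor (*Tgfbr1*). The type I receptor then phosphorylates Smad2 and Smad3, which enter the nucleus with Smad4. Smad7 blocks the type I receptor, and Ski and SnoN (*Skil*) repress Smad target genes. CD103, the αE integrin encoded by *Itgae*, is a known target of TGF-β in T cells. Cells were therefore divided by *Itgae* and by *Foxp3* transcripts.

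In the mouse genome build GRCm38 (GENCODE vM21), *Lrrc32* spans chr7:98489283-98502181 and *Tgfb1* spans chr7:25687002-25705077, both on the + strand. *Tgfbr1* spans chr4:47353222-47414931 (+), *Tgfbr2* spans chr9:116084293-116175360 (-) and *Smad3* spans chr9:63646767-63757994 (-). *Ski* spans chr4:155154075-155222592 (-) and *Skil* spans chr3:31095058-31122577 (+). Promoters from RefSeq (GRCm38.p6, 250 bases before to 50 after the start) were at hand for *Tgfb1*, *Tgfbr1*, *Tgfbr2*, *Smad3* and *Ski*, and missing entries were *Lrrc32* and *Skil*. Those of both receptors and of *Smad3* are shown because *Tgfbr1* and *Smad3* were higher in rescued cells whereas *Tgfbr2* was not. They were searched on both strands for the Smad box CAGAC, the palindromic Smad element GTCTAGAC, the AP-1 motif TGANTCA and the forkhead motif TGTTTAC, and capitals mark a match. A Smad box and the palindromic element can share bases, and no overlap occurred in these sequences.
Tgfbr1, chr4:47352972-47353271, + strand: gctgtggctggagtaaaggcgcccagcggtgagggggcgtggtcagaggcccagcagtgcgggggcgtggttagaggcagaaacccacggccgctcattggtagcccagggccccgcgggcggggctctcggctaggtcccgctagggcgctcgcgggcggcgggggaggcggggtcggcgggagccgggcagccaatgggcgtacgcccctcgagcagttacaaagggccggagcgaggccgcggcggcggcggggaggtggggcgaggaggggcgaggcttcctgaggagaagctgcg
Tgfbr2, chr9:116175314-116175613, - strand: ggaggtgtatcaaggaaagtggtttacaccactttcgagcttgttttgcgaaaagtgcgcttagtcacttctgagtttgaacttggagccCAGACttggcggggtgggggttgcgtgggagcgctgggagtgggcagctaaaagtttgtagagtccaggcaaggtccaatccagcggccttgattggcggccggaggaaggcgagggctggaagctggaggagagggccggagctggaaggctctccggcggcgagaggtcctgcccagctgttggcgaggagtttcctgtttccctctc
Smad3, chr9:63757945-63758244, - strand: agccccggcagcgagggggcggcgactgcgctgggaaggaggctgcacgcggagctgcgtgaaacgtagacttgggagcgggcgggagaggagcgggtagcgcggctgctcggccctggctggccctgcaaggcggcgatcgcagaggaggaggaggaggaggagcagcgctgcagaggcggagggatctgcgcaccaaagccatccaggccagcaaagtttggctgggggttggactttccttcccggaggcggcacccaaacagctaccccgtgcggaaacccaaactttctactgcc
Only the *Tgfbr2* sequence held a match among these 3, a single Smad box 160 bases before the start. The second annotated start of *Tgfbr1* also held 1 Smad box, and the *Tgfb1* and *Ski* promoters held 0 matches to the 4 motifs. Over all 32851 promoters of this length, 49.6% held a Smad box, 0.213% the palindromic element, 7.81% the AP-1 motif and 3.65% the forkhead motif. The GC content was 74.7% for *Tgfbr1*, 59% for *Tgfbr2* and 67.7% for *Smad3*.

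Depth was close to even, at a median of 3739.5 UMIs over 3634 control cells and 3846.5 over 3390 rescued cells, where a UMI stands for a captured RNA molecule. Levels are given as CPM, the UMIs of a gene in a set of cells scaled to 1000000 UMIs of those cells. All 7 Treg markers examined were detected, and 99.8% of control and 100% of rescued cells had a UMI of at least 1 of them. *Foxp3* itself had UMIs in 26.3% of control cells (80.9 CPM) and 71.7% of rescued cells (468 CPM). The libraries carry different Foxp3 alleles, so the allele and the group cannot be told apart for this gene. Of 32 markers of 6 other cell types, 22 were in the table, and the summed level of a list ran from 0.324 to 116 CPM in control and from 0.644 to 88.5 CPM in rescued cells. The highest of these levels came from *Pecam1*, *Cd79b*, *Nkg7*, *Igkc* and *Cd8b1*, while *Cd8a* had 1 UMI in each library, *Pf4* had 1 and 0, *Ms4a1* had 0 and 14, and 10 markers including *Csf1r*, *Ncr1* and *Cdh5* were not in the table. The libraries shared 3 cell barcodes. No cell type that should lack the 10 genes was at hand, so the share of cells with a UMI that free RNA would give was not measured.

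GARP was the member with the largest difference between the libraries. *Lrrc32* had 1445 UMIs in control cells, or 93.6 CPM (95% Poisson interval 88.8 to 98.5), and 2835 UMIs in rescued cells, or 182 CPM (176 to 189). Rescued cells were thus 1.95-fold higher, a log2 ratio of 0.96 (conditional exact interval 0.87 to 1.06). An *Lrrc32* UMI was found in 22.1% of control cells (Clopper-Pearson interval 20.8 to 23.5) and in 39.1% of rescued cells (37.4 to 40.7), and in 7.93% and 14.8% after every cell was thinned to 1000 UMIs. This gene ranked above 98.1% of all genes tested by its ratio. *Tgfb1*, the cytokine that GARP presents, was close to equal, with 3650 UMIs or 236 CPM in control cells (229 to 244) and 4014 UMIs or 258 CPM in rescued cells (250 to 266). Its log2 ratio was 0.13 (0.06 to 0.19).

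The receptor subunits went opposite ways. *Tgfbr1* had 1358 UMIs or 87.9 CPM in control cells (83.3 to 92.7) and 2385 UMIs or 153 CPM in rescued cells (147 to 160), a log2 ratio of 0.80 (0.71 to 0.90). *Tgfbr2* had 1547 UMIs or 100.2 CPM in control cells (95.2 to 105) and 1321 UMIs or 85 CPM in rescued cells (80.5 to 89.7), a log2 ratio of -0.24 (-0.34 to -0.13). The share of cells with a *Tgfbr1* UMI was 26.6% in control and 40.4% in rescued cells, and for *Tgfbr2* it was 33.7% and 30.7%.

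Among the Smads, the receptor-activated pair differed from each other (*Smad2*, *Smad4* and *Smad7* lie on chromosome 18). *Smad3* had 330 UMIs or 21.4 CPM in control cells (19.1 to 23.8) and 537 UMIs or 34.6 CPM in rescued cells (31.7 to 37.6), a log2 ratio of 0.69 (0.49 to 0.90). *Smad2* had 618 UMIs or 40 CPM (36.9 to 43.3) and 570 UMIs or 36.7 CPM (33.7 to 39.8), and its log2 ratio of -0.13 had an interval that held 0 (-0.29 to 0.04). *Smad4*, the shared partner, was lower in rescued cells, at 58.2 CPM (54.4 to 62.1) against 72.8 CPM (68.6 to 77.2), a log2 ratio of -0.32 (-0.45 to -0.20). *Smad3* and *Smad2* had a UMI in 8.48% and 15.3% of control cells, and in 13.9% and 15.3% of rescued cells.

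*Smad7*, the inhibitor of the type I receptor, was the member with the lowest ratio. It had 4308 UMIs or 279 CPM in control cells (271 to 287) and 2803 UMIs or 180 CPM in rescued cells (174 to 187), a log2 ratio of -0.63 (-0.70 to -0.56), and a UMI in 58.6% and 46.7% of the cells. The corepressors differed less. *Ski* was at 133 CPM in control (128 to 139) and 124 CPM in rescued cells (118 to 129), a log2 ratio of -0.11 (-0.20 to -0.02). *Skil* was at 102 CPM (97.4 to 108) and 108 CPM (103 to 113), and its interval held 0 (log2 ratio 0.07, -0.03 to 0.17). The 10 genes of a dissociation stress list, which the handling of cells can induce, summed to 867 CPM in control and 767 CPM in rescued cells. Their part in the *Smad7* difference was not tested.

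**Figure D1:**
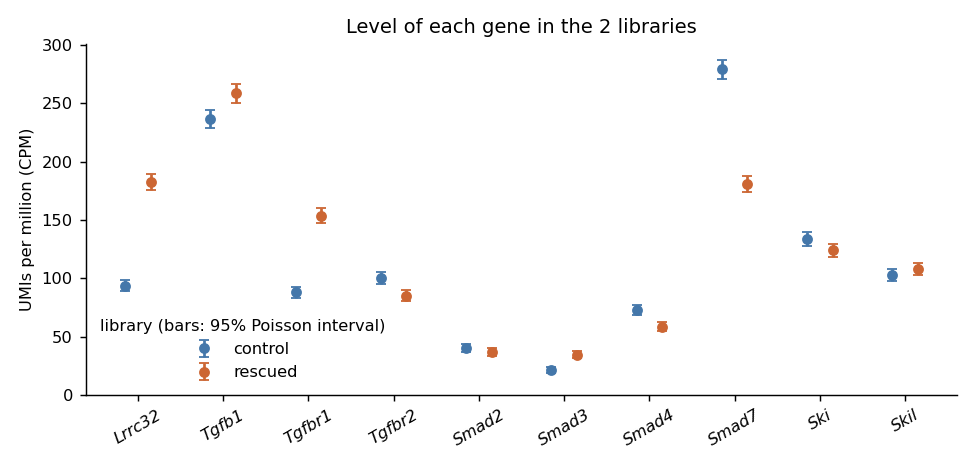
Level of each of the 10 genes (horizontal axis) in CPM (vertical axis, from 0) in the control and the rescued library. Points are library levels and bars 95% Poisson intervals. The intervals lie apart with rescued cells above for *Lrrc32*, *Tgfb1*, *Tgfbr1* and *Smad3*, and with control cells above for *Tgfbr2*, *Smad4* and *Smad7*.

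By a threshold of 1.5-fold, 3 of the 10 members (*Lrrc32*, *Tgfbr1* and *Smad3*) were higher in rescued cells and 1 (*Smad7*) was lower. Of the 9779 genes with at least 100 UMIs over both libraries, 5.15% were higher and 2.7% were lower by that fold. The median log2 ratio of the members was -0.02, beside 0.02 over all these genes. When cells were compared within clusters of like expression, *Lrrc32* had a log2 ratio of 1.03, whereas *Tgfbr1* came to 0.47, *Smad3* to 0.36 and *Smad7* to -0.25, all inside the 1.5-fold threshold. *Smad3* was inside it also after thinning to 1000 and to 2000 UMIs per cell, at 0.57 and 0.51.

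Cells with an *Itgae* transcript were compared with cells without it inside each library. In the control library 608 cells had at least 1 *Itgae* UMI and 3026 had none, and in the rescued library the numbers were 1927 and 1463. *Tgfbr1* followed *Itgae* in both. It stood at 143 CPM with and 74.3 CPM without *Itgae* in control cells, a log2 ratio of 0.95 (0.78 to 1.12), and at 186 and 96.8 CPM in rescued cells, a log2 ratio of 0.94 (0.80 to 1.08). The difference between these log2 ratios was -0.01 (-0.22 to 0.20). *Tgfbr1* was the single member past 1.5-fold in either library. In control cells 3.81% of 8733 genes tested were higher and 1.79% lower by that fold, and in rescued cells 1.38% of 8838 were higher and 0.464% lower, and *Tgfbr1* ranked above 99.1% and 99.7% of them.

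Cells with an *Itgae* UMI had been read more deeply, with medians of 4250.5 against 3682 UMIs in control and 4256 against 3461 in rescued cells. Within 5 strata of cell depth the *Tgfbr1* ratios were 0.88 and 0.98, and within clusters they were 0.82 and 0.87. After thinning to 1000 UMIs per cell they were 0.90 in control and 0.67 in rescued cells, and after thinning to 2000 they were 0.91 and 0.80. Both thinned values of rescued cells lay below the interval given for that library. With classes of 2 or more *Itgae* UMIs the ratios were 1.13 and 1.10, each above its interval. Markers of other cell types also differed between *Itgae* classes. The B cell list summed to 82 CPM with and 46.8 CPM without *Itgae* in control cells and to 84 and 96.5 CPM in rescued cells, and the endothelial or stromal list, nearly all of it *Pecam1*, to 86.3 and 124 CPM and to 61.3 and 83.5 CPM. The CD8 T or NK cell list stood at 67.6 and 61.8 CPM and at 47.1 and 35.8 CPM, and the remaining 3 lists were at or under 3.73 CPM in all classes. Without any cell that had a UMI of these lists, *Tgfbr1* had ratios of 0.84 in both libraries. This step left out 1817 of 3634 control and 1529 of 3390 rescued cells, so it removed far more than a small admixture.

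*Lrrc32* was also higher in cells with *Itgae*, though by less than 1.5-fold. It stood at 124 against 86 CPM in control cells (log2 ratio 0.53, 0.36 to 0.70) and at 200 against 152 CPM in rescued cells (0.39, 0.28 to 0.51). The control ratio was past 1.5-fold with equal weight for cells (0.61), after thinning to 1000 (0.62) and 2000 UMIs (0.71) and within clusters (0.71). Under the other alternatives it was inside the threshold, down to 0.38 with a class of 2 or more *Itgae* UMIs. *Tgfb1* had ratios of 0.05 (-0.07 to 0.17) in control and 0.20 (0.10 to 0.30) in rescued cells. *Tgfbr2*, the partner of *Tgfbr1*, had ratios of -0.01 (-0.19 to 0.18) and 0.18 (0.01 to 0.35). The intervals of *Smad2*, *Smad3* and *Smad4* held 0 in both libraries. *Skil* had a ratio of 0.07 (-0.11 to 0.25) in control and 0.31 (0.16 to 0.47) in rescued cells, *Ski* of 0.11 (-0.05 to 0.26) and 0.21 (0.07 to 0.35), and *Smad7* of -0.04 (-0.15 to 0.07) and 0.12 (0.01 to 0.24). The ratio of rescued cells was above that of control cells for *Skil* by 0.24 on the log2 scale (0.01 to 0.47), and the intervals of this difference began just above 0 for *Smad7* (0.16, 0.00 to 0.32) and *Tgfb1* (0.15, 0.00 to 0.30). The median over members was 0.06 in control and 0.19 in rescued cells, beside 0.03 and 0.01 over all genes tested.

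*Foxp3* transcripts marked a different member. In the control library 956 cells had a *Foxp3* UMI and 2678 had none, and in the rescued library the numbers were 2432 and 958. *Lrrc32* stood at 125 CPM with and 80.4 CPM without *Foxp3* in control cells, a log2 ratio of 0.63 (0.48 to 0.79), and at 193 and 149 CPM in rescued cells, a log2 ratio of 0.37 (0.23 to 0.50). The ratio in rescued cells was lower than in control cells by a log2 difference of -0.27 (-0.47 to -0.06), between classes that the different alleles do not make alike. *Lrrc32* was the only member past 1.5-fold in control cells, where 0.733% of genes tested were higher and 0.424% lower, and no member was past it in rescued cells, where 1.07% were higher and 0.543% lower. Without cells over 10% mitochondrial UMIs, the control ratio was 0.55 and inside the threshold. Cells with a *Foxp3* UMI had been read more deeply, with medians of 3980 against 3674.5 UMIs in control and 4042.5 against 3454 in rescued cells. After thinning to 1000 and 2000 UMIs the control *Lrrc32* ratio was 1.00 and 0.93, above its interval. The rescued *Lrrc32* ratio ranged from 0.32 to 0.45 over all alternatives. *Tgfbr1* had ratios of 0.16 (-0.01 to 0.32) and 0.21 (0.06 to 0.35) between *Foxp3* classes. The remaining 8 members ranged from -0.10 to 0.16 in control and from -0.27 to 0.08 in rescued cells, and the interval excluded 0 only for *Skil* in control cells (0.16, 0.00 to 0.31) and for *Smad7* in rescued cells (-0.16, -0.28 to -0.03). The difference between the libraries in this ratio was -0.38 (-0.74 to -0.02) for *Smad2* and -0.16 (-0.312 to -0.0027) for *Smad7*.

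**Figure D2:**
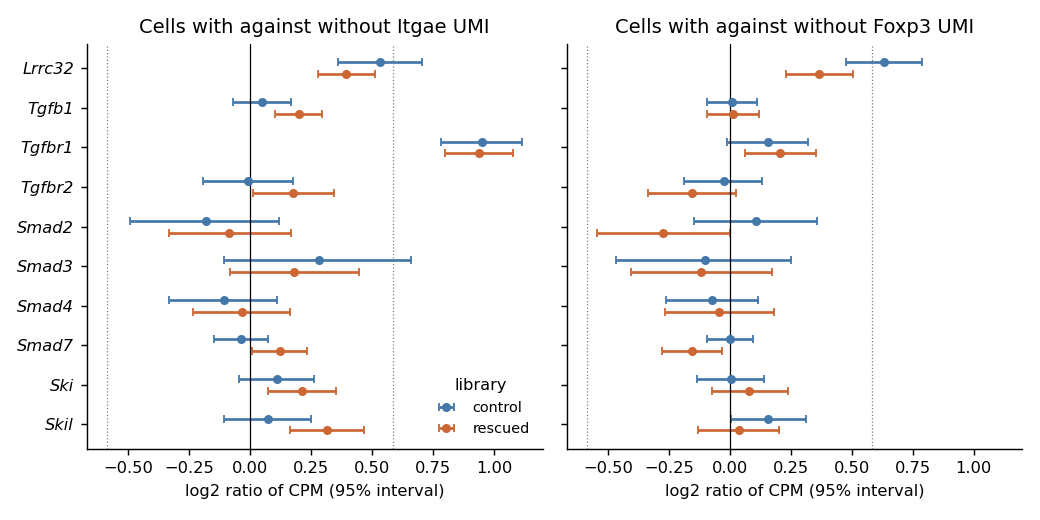
Log2 ratio of CPM (horizontal axis) between cells with and cells without an *Itgae* UMI (left) or a *Foxp3* UMI (right) for each gene, within the control and within the rescued library. Bars are 95% counting intervals and dotted lines mark 1.5-fold. *Tgfbr1* lies near 0.95 in both libraries for *Itgae*, and *Lrrc32* has the highest ratio of the 10 genes for *Foxp3*.

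The joint classes separated both patterns. *Tgfbr1* in control cells was at 73.1 CPM (67.6 to 78.9) with neither transcript, 77.4 CPM (68.4 to 87.2) with *Foxp3* alone, 140 CPM (124 to 158) with *Itgae* alone and 149 CPM (127 to 173) with both. In rescued cells the same classes were at 92.6 (78.8 to 108), 98.7 (89 to 109), 178 (159 to 198) and 188 CPM (178 to 197). Its level thus differed by *Itgae*, and within each *Itgae* class the *Foxp3* classes had overlapping intervals. *Lrrc32* in control cells was at 72.7 CPM (67.2 to 78.5) with neither, 120 CPM (109 to 132) with *Foxp3* alone, 116 CPM (101 to 132) with *Itgae* alone and 139 CPM (118 to 162) with both. In rescued cells it was at 123 (107 to 140), 165 (152 to 178), 173 (155 to 193) and 206 CPM (196 to 216). Both transcripts went with more *Lrrc32*, and rescued cells were above control cells in each of the 4 classes.

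The number of UMIs gave a finer view. *Tgfbr1* in rescued cells was at 96.8 CPM in cells with 0 *Itgae* UMIs, 138 CPM with 1, 168 CPM with 2 to 3 and 253 CPM (236 to 271) with 4 or more. Its intervals did not overlap from step to step. In control cells the levels were 74.3, 121, 161 and 168 CPM (132 to 211), the last from 76 cells. *Lrrc32* did not rise at each step of *Itgae* in control cells, where it was at 86, 139, 121 and 87.4 CPM (62.1 to 119). The last level came from 39 UMIs. Its interval lay below that of cells with 1 *Itgae* UMI (120 to 160). It overlapped those of cells with 0 (80.9 to 91.3) and with 2 to 3 *Itgae* UMIs (102 to 142). A return to the level of cells with none was thus not shown. In rescued cells *Lrrc32* was at 152, 194, 199 and 207 CPM. By *Foxp3* UMIs, *Lrrc32* in rescued cells was at 149, 165, 194 and 210 CPM, and in control cells at 80.4 CPM with 0, 121 CPM with 1 and 134 CPM with 2 to 3. Only 9 control cells had 4 or more *Foxp3* UMIs.

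**Figure D3:**
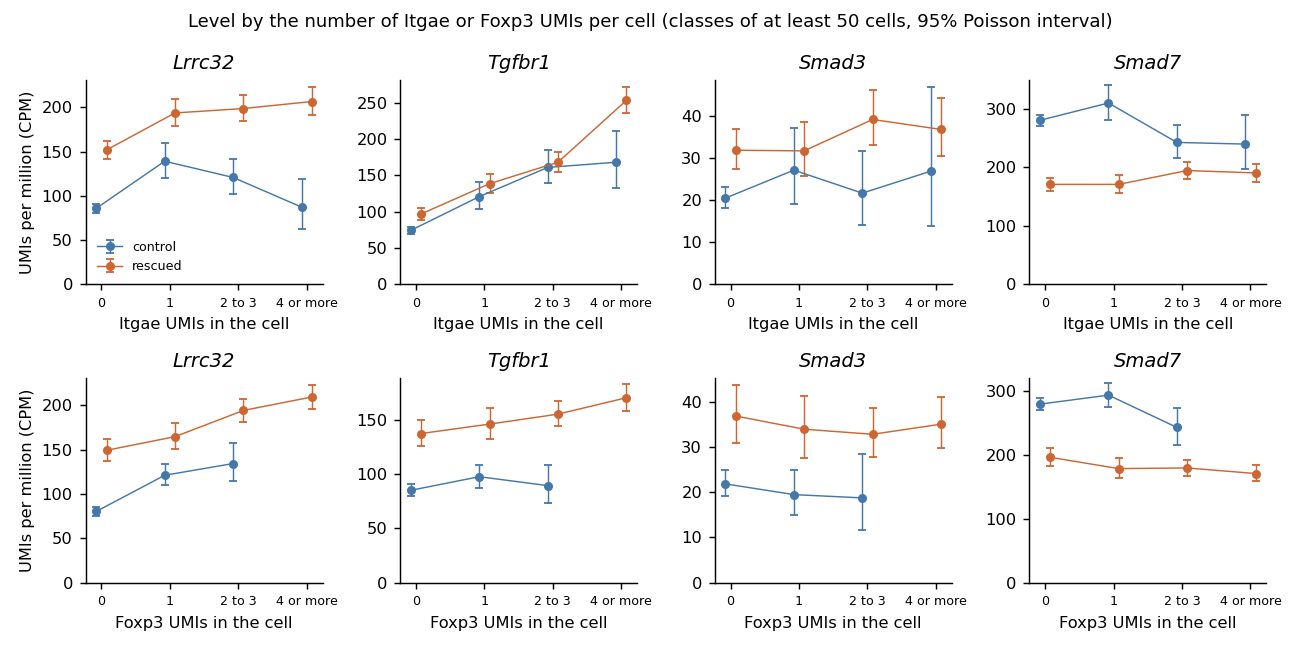
Level in CPM (vertical axes, from 0) of *Lrrc32*, *Tgfbr1*, *Smad3* and *Smad7* in cells grouped by their number of *Itgae* UMIs (top) or *Foxp3* UMIs (bottom), in control and rescued cells. Bars are 95% Poisson intervals, and classes under 50 cells are not drawn. *Tgfbr1* in rescued cells climbs from 96.8 to 253 CPM over the *Itgae* classes.

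Because *Itgae* had UMIs in 16.7% of control and 56.8% of rescued cells, the libraries were then compared within a class. Among cells without *Itgae*, *Lrrc32* had a log2 ratio between rescued and control of 0.82 (0.69 to 0.95), *Smad3* of 0.64 (0.35 to 0.92) and *Smad7* of -0.71 (-0.82 to -0.61), so that 2 members were higher and 1 was lower by 1.5-fold, beside 4.38% and 2.7% of genes tested. Within clusters *Smad3* was at 0.37 and *Smad7* at -0.33 in these cells, after thinning to 1000 UMIs at 0.54 and -0.56, and after thinning to 2000 UMIs *Smad3* was at 0.44, all inside the threshold. Among cells with *Itgae*, 1 member was higher and 0 were lower, beside 2.3% and 2.02% of genes tested. That member was *Lrrc32*, at 0.68 (0.52 to 0.85), and at 0.54 and inside the threshold without cells that had a UMI of another cell type's marker. *Smad7* stood at -0.56 (-0.67 to -0.44) and *Smad3* at 0.53 (0.17 to 0.91) in these cells. *Tgfbr1* was the member whose ratio shifted most by this step. From 0.80 over all cells it came to 0.38 (0.23 to 0.54) without and 0.37 (0.22 to 0.53) with *Itgae*.

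The libraries were compared in the same way within *Foxp3* classes. Among cells without *Foxp3*, *Lrrc32* (0.89, 0.74 to 1.05), *Tgfbr1* (0.69, 0.53 to 0.85) and *Smad3* (0.75, 0.44 to 1.07) were higher and 0 members were lower, beside 3.88% and 2.76% of genes tested, with *Smad7* at -0.51 (-0.63 to -0.39). Within clusters *Tgfbr1* was at 0.38 and *Smad3* at 0.49 in these cells, and *Smad3* was at 0.57 after thinning to 1000 UMIs, inside the threshold. Among cells with *Foxp3*, *Lrrc32* (0.63, 0.49 to 0.76), *Tgfbr1* (0.74, 0.59 to 0.90) and *Smad3* (0.74, 0.41 to 1.08) were higher and *Smad7* was lower (-0.67, -0.77 to -0.57), beside 4.51% and 2.59% of genes tested. The *Lrrc32* value in these cells was inside the threshold at 0.27 and 0.44 after thinning to 1000 and 2000 UMIs, 0.49 without cells with a marker of another cell type and 0.56 without likely doublets. Within clusters *Tgfbr1* was at 0.42, *Smad3* at 0.45 and *Smad7* at -0.35, and with classes of 2 or more *Foxp3* UMIs *Smad3* was at 0.58 and *Smad7* at -0.47. *Tgfbr2* and *Smad4* had negative ratios in all 4 of these classes, between -0.35 and -0.13.

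The tdTomato reporter marks cells that underwent Cre recombination at the time of 4-OHT and their progeny. Of control cells 62.9% had a tdTomato UMI, and of rescued cells 55.9%, although Foxp3 itself required Cre in the rescued library. The share that free RNA gives was not measured, and the classes are classes of transcript only. By flow cytometry at this stage, the paper reports tdTomato in a small minority of control and a large majority of rescued Treg cells. It divided control cells by a cutoff on imputed tdTomato levels that gave a like share. By these shares, most control cells with a UMI were unlabelled, and many rescued cells without a UMI were labelled. The comparisons below are thus not read as comparisons of older with younger cells. The 2287 control cells with a tdTomato UMI and the 1347 without differed by less than 1.5-fold for every member, with 0 higher and 0 lower beside 2.38% and 0.412% of genes tested. *Smad7* was lower in cells with a tdTomato UMI, at 261 against 316 CPM (log2 ratio -0.27, -0.36 to -0.18), and *Smad3* was higher, at 23.5 against 16.9 CPM (0.48, 0.12 to 0.86). The *Smad7* ratio was -0.07 within clusters and -0.15 and -0.13 after thinning to 1000 and 2000 UMIs, each nearer 0 than its interval. *Lrrc32* was at 92.5 and 95.7 CPM, a log2 ratio of -0.05 (-0.21 to 0.11), and *Tgfbr1* was at 90.2 and 83.1 CPM (0.12, -0.05 to 0.29). Rescued cells set against the control cells with a tdTomato UMI had *Lrrc32* at 0.98 (0.87 to 1.09) and *Tgfbr1* at 0.77 (0.66 to 0.88) as the 2 members past 1.5-fold higher, with 0 lower, beside 4.04% and 2.34% of genes tested. Within clusters *Tgfbr1* was at 0.49 and inside the threshold. *Smad3* stood at 0.56 (0.34 to 0.78) and *Smad7* at -0.53 (-0.61 to -0.46), and within clusters they came to 0.26 and -0.22.

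Clusters were built without the 10 members and without *Itgae*, *Foxp3* and tdTomato, and are named by number. Cluster 1, led by *Igfbp4* and *Ly6c1*, held 1419 control and 85 rescued cells. Cluster 4, led by *Ccr9* and *Gbp2b*, held 71 control and 642 rescued cells, and cluster 8, led by *Ccl5* and *Epcam*, held 71 and 333. There were 19 populations of a cluster and a library with at least 50 cells, and 9 clusters had both libraries. *Lrrc32* was higher in rescued cells in 9 of 9 clusters. Its lowest level was 27.4 CPM (17.2 to 41.5) in control cells of cluster 3, led by *Areg* and *Lag3*, where rescued cells had 121 CPM (108 to 136). Its highest was 259 CPM (239 to 280) in rescued cells of cluster 4, where control cells had 73.2 CPM (44.1 to 114). Rescued cells of cluster 5, led by *Dapl1* and *Prg4*, had 256 CPM and those of cluster 8 had 254 CPM, with control cells at 111 and 113 CPM. In cluster 1 the levels were 98.1 CPM (90.1 to 107) in control and 144 CPM (110 to 187) in rescued cells.

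*Smad3* and *Skil* were higher in rescued cells in 8 of 9 clusters and *Tgfbr1* in 7 of 9. For *Smad3* and *Skil* the intervals of control and rescued cells overlapped in each of these clusters. The clusters divide the same pair of libraries and are not replicates. *Tgfbr1* ran from 49.8 CPM (30.4 to 76.9) in the rescued cells of cluster 1 to 211 CPM (192 to 230) in the rescued cells of cluster 4. In cluster 6, led by *S100a4* and *Ccr2*, it was at 68.6 CPM (55.2 to 84.2) in control and 109.5 CPM (97.3 to 123) in rescued cells. *Smad7* was highest in control cells of cluster 1, at 378 CPM (363 to 395), against 301 CPM (250.1 to 360.1) in the rescued cells there, and lowest in rescued cells of cluster 7, led by *Il1r2* and *Penk*, at 107 CPM (91.7 to 124). It was higher in rescued cells in 1 of 9 clusters. Cluster 1 made up 39% of control and 2.51% of rescued cells. *Tgfb1* was highest in the rescued cells of cluster 7, at 387 CPM, and its spread of 2.59-fold over the populations compared with 9.44-fold for *Lrrc32*, 4.23-fold for *Tgfbr1*, 3.53-fold for *Smad7* and 2.02-fold for *Tgfbr2*.

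**Figure D4:**
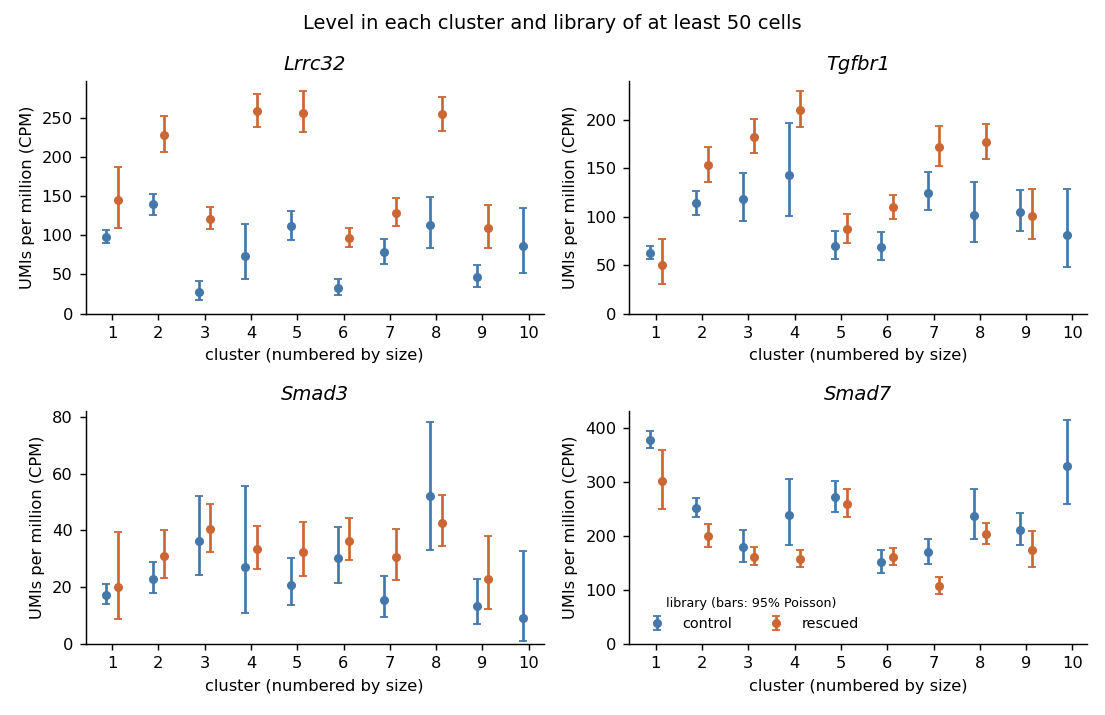
Level in CPM (vertical axes, from 0) of *Lrrc32*, *Tgfbr1*, *Smad3* and *Smad7* in each cluster (horizontal axis) for control and rescued cells, where at least 50 cells were present. Bars are 95% Poisson intervals. *Lrrc32* is higher in rescued cells in 9 of 9 clusters, with 259 and 73.2 CPM in cluster 4.

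Patterns over these 19 populations were compared by Pearson's r of log2(CPM + 10), a description in which populations share libraries and depth. Among the genes most like *Lrrc32* of 6955 compared were *Il4ra* (r = 0.85) and *Sh3bgrl2* (0.83). *Tgfbr1* was most like *Pmepa1* (0.90), a feedback inhibitor of TGF-β signalling, then *Dok1* (0.88) and 2010111I01Rik (0.86), and had r = 0.71 with *Itgae*. *Smad3* was most like *Il10ra* (0.84), BC004004 (0.83) and *Lcorl* (0.82), and had r = 0.78 with *Itgae*. For *Smad7* the genes were *Tpt1* (0.89), *Rab3ip* (0.87) and *Scml4* (0.86), with r = -0.64 for *Itgae*. Among the genes most like *Tgfb1* were *Irf4* (0.90) and *Uqcr10* (0.89). *Tgfbr2* was most like *Kansl3* (0.86), *Btg1* (0.80) and *Uvssa* (0.76), and *Smad4* like *Aida* (0.90), *Gm4070* (0.85) and *Scml4* (0.84). *Smad2* was most like *Ythdc2*, *Myef2* and *Hgs* (0.82 each), *Ski* like *Rnf145* (0.91), *Etv3* (0.86) and *Zfp180* (0.85), and *Skil* like *Apol9b* (0.82), *Ctsw* (0.80) and *Tmem230* (0.78). Between members the highest r was that of *Smad4* with *Smad7* (0.69) and the lowest that of *Tgfb1* with *Smad4* (-0.82).

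Other genes of the pathway were read as 6 lists with 69 genes, of which 64 were in the table and 45 had at least 100 UMIs over both libraries. By 1.5-fold, 8 of the 45 were higher and 4 were lower in rescued cells, beside 5.15% and 2.7% of all genes tested, and their median log2 ratio was 0.08. In ligand latency and activation, 1 of 4 genes tested was higher and 0 were lower. This was *Itgb8*, the β8 chain of the integrin that frees TGF-β from GARP, at 67.7 CPM in rescued and 35.6 CPM in control cells (log2 ratio 0.93, 0.78 to 1.08). Its αv partner *Itgav* was at 0.44 (0.29 to 0.60). Among receptors and coreceptors, 2 of 7 were higher, the BMP receptors *Bmpr1a* (1.42, 1.04 to 1.81) and *Bmpr2* (0.76, 0.51 to 1.02), and 1 was lower, the coreceptor *Tgfbr3* (-1.16, -1.69 to -0.64, from 46 rescued and 102 control UMIs). *Nrp1*, with most UMIs of this list, was at 0.34 (0.29 to 0.39). Among other Smads and their partners, 0 of 8 were higher and 1 was lower, *Smad1*, which acts downstream of BMP receptors (-0.60, -0.85 to -0.36), and the coactivator *Crebbp* was at -0.09 (-0.17 to -0.01).

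Of 15 negative regulators and ubiquitin enzymes, 1 was higher, *Pmepa1* at 215 against 123 CPM (0.80, 0.72 to 0.88), and 1 was lower, the ubiquitin ligase *Nedd4l* (-1.13, -1.59 to -0.69, from 62 and 135 UMIs). The corepressor *Ncor1* was at -0.03 (-0.08 to 0.02). Of 8 genes known to be induced by TGF-β, 3 were higher and 0 were lower: *Itgae* (2.04, 1.95 to 2.13), *Pmepa1*, and *Gpr15*, a homing receptor of the large intestine (1.33, 0.74 to 1.95, from 86 and 34 UMIs). *Junb* was at 0.16 (0.12 to 0.20). Of 6 T cell genes known to be repressed by TGF-β, *Gzmb* (1.58, 1.35 to 1.81) and *Ifng* (0.62, 0.15 to 1.10) were higher and *Myc* was lower (-0.76, -0.90 to -0.62), while *Gata3* was at 0.23 (0.15 to 0.31). *Gzmb* and *Ifng* encode the effector molecules granzyme B and interferon-γ.

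Between *Itgae* classes of rescued cells, *Itgae*, which defines the class, and *Gzmb* were the only listed genes past 1.5-fold, where 1.38% of all genes tested were higher and 0.464% lower. In control cells 4 of 7 induced genes were higher with *Itgae*, beside 3.81% of all genes tested, and *Itgae* is again 1 of them. The others were *Ldlrad4* (0.86, 0.68 to 1.05), *Pmepa1* (0.72, 0.57 to 0.86) and *Nt5e*, which encodes CD73 (0.64, 0.53 to 0.76). In rescued cells these 3 stood at 0.37, 0.51 and 0.18, all inside the threshold. Among receptors *Bmpr2* was higher in control cells with *Itgae* (0.67, 0.20 to 1.12), and *Acvr1b* (-0.81, -1.61 to -0.09) and *Tgfbr3* (-0.63, -1.56 to 0.20) were lower by 1.5-fold, beside 1.79% of all genes tested. *Itgb8* had ratios of 1.04 (0.78 to 1.30) in control and 0.46 (0.27 to 0.66) in rescued cells, and *Gzmb* of 2.28 (1.87 to 2.68) and 0.94 (0.66 to 1.22). Between *Foxp3* classes *Pmepa1* was at -0.07 (-0.22 to 0.07) and -0.04 (-0.15 to 0.08), and *Gzmb* was the single listed gene higher by 1.5-fold in both libraries, at 0.60 (0.18 to 1.01) and 1.79 (1.37 to 2.23).

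**Figure D5:**
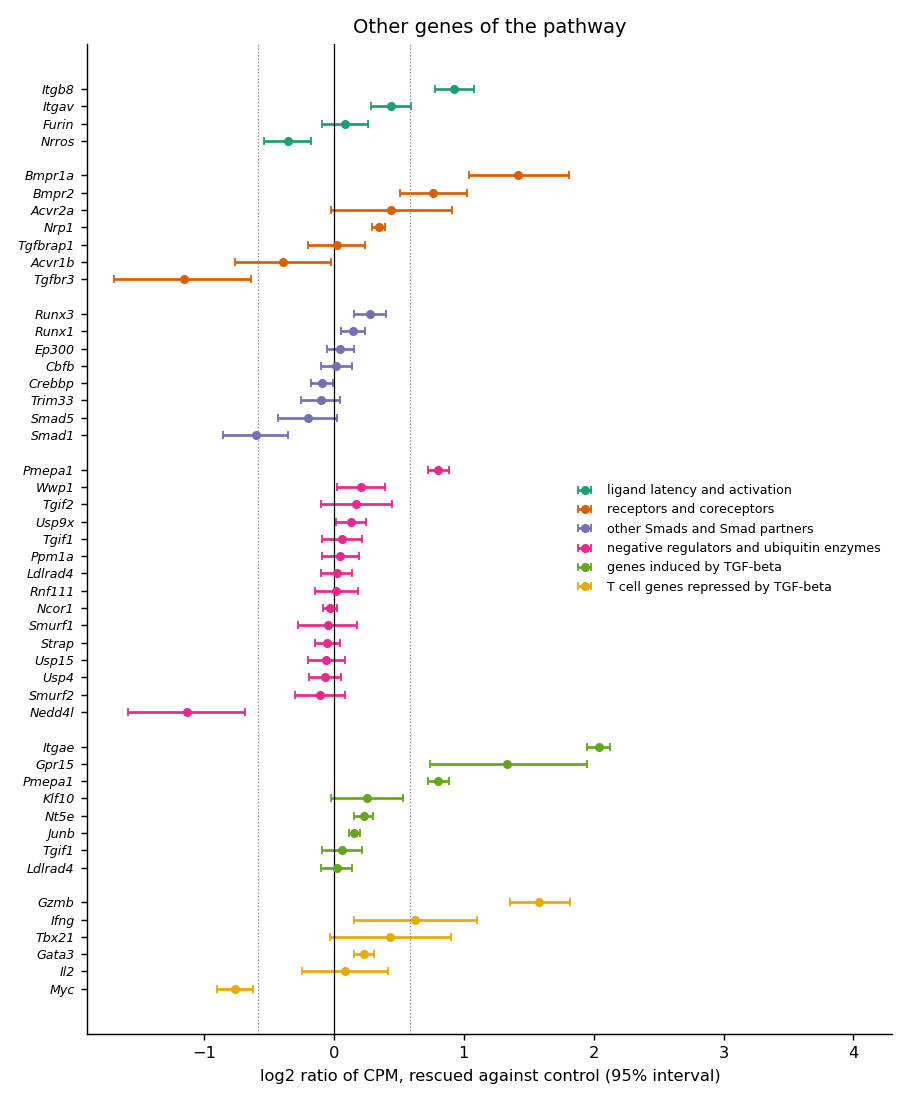
Log2 ratio of CPM between rescued and control cells (horizontal axis) for 45 other pathway genes with at least 100 UMIs, grouped and coloured by list (genes in more than 1 list are drawn in each). Bars are 95% counting intervals and dotted lines mark 1.5-fold. *Itgae*, at 2.04, has the highest and *Tgfbr3*, at -1.16, the lowest ratio.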

How the data were processed

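Droplet scRNA-seq (10x Chromium 3′ v3) was performed by the authors on 1 control and 1 rescued library. Reads were processed with Cell Ranger 3.0 against GRCm38 with a tdTomato sequence added, and Seurat 3.1.5 is also named in the submitters' processing notes. The deposited counts are whole numbers of UMIs that were not normalized, over 7024 cells and 16098 genes, with 0 ribosomal protein genes in the table. The authors state a limit of 5% mitochondrial transcripts, but 3566 control and 3293 rescued cells exceeded it in this table, whose totals lack ribosomal protein genes, so it was not applied again. A deposited table of log values was not used.

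The prefix of a cell's name gave its library. Counts were summed over cells and divided by the summed total (15446201 control and 15537656 rescued UMIs). Classes needed at least 1 UMI of *Itgae*, *Foxp3* or tdTomato. Ratios of CPM carry conditional exact intervals, levels Poisson intervals and shares of cells Clopper-Pearson intervals, at 95%; differences of log2 ratios have normal intervals. Being called meant a ratio of at least 1.5-fold among genes with at least 100 UMIs. Clusters came from the Leiden method (leidenalg 0.10.2). Doublets were not removed in the values given, and an alternative left out the 3.5% of cells with the highest Scrublet score (scanpy 1.11.5). The ratio and its interval were checked on simulated counts. All 10 members and the class genes were named, with the pathway genes past 1.5-fold between libraries, the gene of each list with most UMIs, and the 3 genes most like each member, of which some are not reported here. *Itgav*, *Ldlrad4*, *Nt5e* and *Acvr1b* were named after their values were seen. The members and lists were chosen with earlier results of these data known.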

Additional observations from a re-analysis of the deposited data

How the results depend on the processing

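No paired analysis was possible because control and rescued mice gave 1 library each, and no library could be left out. Alternatives were another scaling (median of ratios), equal weight for cells, thinning to 1000 or 2000 UMIs, depth strata, a total without mitochondrial, receptor and class genes, comparison within clusters, removal of likely doublets, of cells with markers of other cell types or of cells over 10% mitochondrial UMIs, and a class of 2 or more UMIs. The removal of cells with a rarer marker of another cell type was added after seeing the data. It left out 353 control and 397 rescued cells, and all 110 member values stayed inside their counting intervals. Of the member values under these alternatives, 1167 stayed inside the counting interval of the value reported, 111 moved outside it, 33 of them with a change of sign, and 12 whose interval lay apart from 0 changed sign. Of the 1167, 80 changed sign inside an interval that held 0.

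*Lrrc32* in rescued against control cells ranged from 0.88 to 1.03. Within clusters the number of members past 1.5-fold was 1 in rescued against control cells and against control cells with a tdTomato UMI, and in cells without *Itgae*, without *Foxp3* and with *Foxp3*. Between *Itgae* classes of control cells the number was 2 within clusters or with equal weight, *Lrrc32* and *Tgfbr1*. The number was 4 after thinning to 1000 UMIs, with *Lrrc32* (0.62), *Tgfbr1* (0.90) and *Smad3* (0.74) higher and *Tgfbr2* (-0.65) lower. After thinning to 2000 it was 3, with *Lrrc32* (0.71) and *Tgfbr1* (0.91) higher and *Smad4* (-0.60) lower. Between *Foxp3* classes of control cells it was 0 without cells over 10% mitochondrial UMIs. In cells without *Itgae* it was 1 after thinning to 1000, in cells with *Itgae* it was 2 with equal weight, after either thinning or at 2 or more UMIs, and in cells with *Foxp3* it was 2 at 2 or more UMIs. These numbers count higher and lower members together. The share of all genes past 1.5-fold under these alternatives is not given, so the numbers are not read as results about the members.

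The 12 sign changes of values with an interval apart from 0 came with thinning. Thinning kept 1000 or 2000 UMIs of each cell in a single draw, beside medians of 3739.5 in control and 3846.5 in rescued cells. Thinned values thus rest on fewer UMIs, and they were set against the interval of the full counts without an interval of their own. The cause of the sign changes was not tested. After thinning to 1000 UMIs, *Ski* stood at 0.030 in rescued against control, 0.022 in cells without *Itgae* and 0.040 in cells without *Foxp3*, *Tgfbr2* at -0.28 and *Smad7* at -0.32 between *Itgae* classes of rescued cells, *Skil* at -0.00733 between *Foxp3* classes of control cells (-0.052 at 2000), *Tgfb1* at -0.047 in cells with *Itgae*, and *Smad2* at 0.38 and *Smad4* at 0.12 in cells with *Foxp3*. After thinning to 2000, *Smad4* stood at 0.34 in cells with *Itgae* and *Ski* at 0.039 between tdTomato classes. With a minimum of 20 or 500 UMIs in place of 100, the share of all genes past 1.5-fold between libraries was 13.3% or 4.59% in place of 7.85%, and between *Foxp3* classes of control cells 6.11% or 0.145% in place of 1.16%, with the other comparisons between 6.51% and 13.5% or between 0.324% and 4.47%. Genes near 20 CPM, such as *Smad3*, have the widest intervals.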
